A study of Saccharomyces cerevisiae with 6 samples.

Results

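The genes of heme synthesis and heme breakdown were followed in budding yeast (Saccharomyces cerevisiae, strain S288C) exposed to zinc pyrithione, a zinc complex used against fungi in shampoos and paints. The members were taken by name in pathway order, by a rule that uses no measured value but was set with earlier results of these data known: the 8 enzyme genes HEM1, HEM2, HEM3, HEM4, HEM12, HEM13, HEM14 and HEM15, the carrier gene HEM25 and the heme oxygenase gene HMX1. All 10 were found among the 5379 genes named on the array, each by 1 spot. Cultures in rich YPD medium at 25 °C received 12.6 µM of the compound, dissolved in dimethyl sulfoxide, for 2 h, and their messenger RNA was labelled with Cy5. Cultures grown for the same 2 h without treatment supplied the Cy3-labelled messenger RNA on the same array. The series held 3 such arrays, from separate biological samples by its design text. Each was read once with a strong and once with a weak laser setting (high-power and low-power scans), so that 6 scans made 3 replicates. The ratio was taken as treated over untreated, the likely direction because the treated sample is the first channel. The deposited values do not state it, and in the other direction every "higher" and "lower" below would be exchanged. The dyes were exchanged on no array and the control received no solvent by its label, so dye, solvent and compound cannot be told apart.

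Heme is made from glycine and succinyl-coenzyme A by a linear pathway that begins in the mitochondrial matrix, passes through the cytosol and ends at the mitochondrial inner membrane, where ferrochelatase inserts ferrous iron into protoporphyrin. The pathway thus consumes iron, and its product serves the cytochromes, catalases and sterol enzymes. In yeast, heme also acts as a signal of oxygen through the activator Hap1 and the Hap2/3/4/5 complex. The S288C strain carries a transposon insertion in HAP1 that weakens this gene. Heme oxygenase opens the heme ring and releases its iron, and the yeast gene HMX1 is known as a target of the iron-sensing activator Aft1.

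HMX1 lay above 0 on every array, and the mean ratios of the synthesis-side genes lay below 0 or near it. HMX1 rose 14.5-fold, 4 synthesis-side genes fell (HEM1, HEM3, HEM4 and HEM25), and HEM2, HEM12 and HEM14 were not past the threshold. The lowest mean log2 ratios of the pathway belonged to HEM13 and HEM15, which had values on 2 arrays and are given as values. Of the 25 array values of the 9 synthesis-side genes (the enzymes and the carrier), 22 were below 0 and 3 above. The 2 or 3 values of a gene are not separate genes, and values near 0 count here by sign alone. Among all 4312 genes tested, 2057 had a mean below 0. The mean ratio of each gene was tested against 0 with limma and Benjamini-Hochberg adjustment over all 4312 genes that had values on all 3 arrays and called at an adjusted p under 0.05. Of all genes tested, 17.7% were called, 9.6% as lower and 8.12% as higher. Of the 8 members tested, 4 were lower and 1 was higher. As a level scale, a log2 ratio of -1 means that the treated culture held a lower share of that transcript by a factor of 2.

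**Figure D1:**
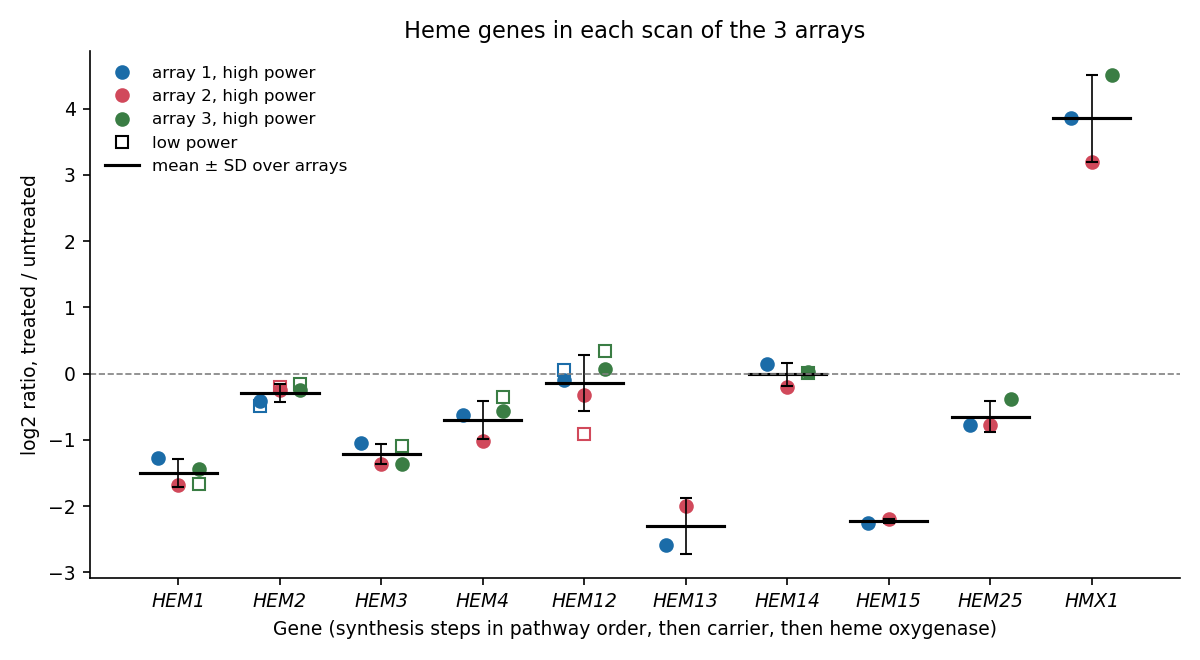
Log2 ratio, treated over untreated, of each gene in each scan, with filled circles for high-power scans, open squares for low-power scans and bars for the mean ± SD over the arrays (n = 3, or n = 2 for HEM13 and HEM15). HMX1 stands alone above 3, while HEM13 and HEM15 lie near or below -2 and have no points on array 3.

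HEM1 (YDR232W) encodes 5-aminolevulinate synthase, which condenses glycine with succinyl-coenzyme A in the mitochondrial matrix. Its log2 ratio was -1.27 on array 1, -1.68 on array 2 and -1.56 on array 3. All 3 arrays were low, and the mean of -1.50 ± 0.21 (SD, n = 3; limma adjusted p = 0.0012) left the transcript at 35.3% of its untreated share. On the 3 arrays, 3.57%, 2.3% and 1.66% of the genes with a value had a lower ratio than HEM1.

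HEM2 (YGL040C) encodes porphobilinogen synthase, a zinc enzyme of the cytosol that joins a pair of 5-aminolevulinate molecules. Its ratios were -0.45, -0.22 and -0.21 on arrays 1 to 3, small and of the same sign. The mean of -0.29 ± 0.14 (SD, n = 3) was not past the threshold (limma adjusted p = 0.22), with a 95% confidence interval from -0.66 to 0.07. HEM2 was one of 2 members with a value in every scan, and its high-power and low-power values differed by at most 0.09 on any array.

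HEM3 (YDL205C) encodes porphobilinogen deaminase, which links porphobilinogen units into a linear tetrapyrrole. It stood at -1.05, -1.36 and -1.23 on arrays 1 to 3. The arrays lay close together, and the mean of -1.21 ± 0.15 (SD, n = 3; limma adjusted p = 0.0029) corresponds to a 2.32-fold fall.

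HEM4 (YOR278W) encodes uroporphyrinogen III synthase, which closes the tetrapyrrole into a ring. Its ratios were -0.62, -1.01 and -0.46 on arrays 1 to 3, all negative but more spread than those of HEM3. The mean of -0.70 ± 0.28 (SD, n = 3; limma adjusted p = 0.032) was called, and the call ended when any 1 array was left out (limma adjusted p = 0.12, 0.17 and 0.05 without arrays 1, 2 and 3, the last just over the threshold before rounding).

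HEM12 (YDR047W) encodes uroporphyrinogen decarboxylase, which trims the side chains of the ring. Its values were -0.02, -0.61 and 0.21 on arrays 1 to 3, so that the arrays fell on both sides of 0. The mean was -0.14 ± 0.42 (SD, n = 3; limma adjusted p = 0.64; 95% confidence interval from -0.60 to 0.32). Array 2 was the low one, where the high-power scan gave -0.32 and the low-power scan -0.91, the widest gap between scans of any member.

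HEM13 (YDR044W) encodes coproporphyrinogen III oxidase, which needs molecular oxygen; its transcript is known to rise when oxygen or heme is scarce, through loss of the repressor Rox1. It stood at -2.59 on array 1 and -2.0 on array 2, and neither scan of array 3 held a value. The mean of -2.30 ± 0.42 (SD, n = 2) amounts to a level of 20.4% of the untreated share. Both arrays were far below 0, with 0.322% and 1.27% of genes lower on arrays 1 and 2.

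HEM14 (YER014W) encodes protoporphyrinogen oxidase of the mitochondrial inner membrane. Its ratios of 0.14, -0.20 and 0.02 on arrays 1 to 3 straddled 0. The mean was -0.01 ± 0.17 (SD, n = 3; limma adjusted p = 0.96). Its 95% confidence interval, not adjusted for the number of genes, ran from -0.38 to 0.36, so a shift within it remains possible.

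HEM15 (YOR176W) encodes ferrochelatase, the enzyme that inserts iron. It stood at -2.25 on array 1 and -2.20 on array 2, with no value on array 3. The values were nearly alike, and the mean of -2.22 ± 0.03 (SD, n = 2) corresponds to a 4.67-fold difference. When genes with values on at least 2 arrays were admitted to the fit (5048 genes, of which 8.24% were lower), HEM13 and HEM15 were both past the threshold (limma adjusted p = 0.0019 and 0.0012), and 6 of 10 members were lower. In that fit HEM13 ranked number 30 and HEM15 number 34 from the lowest mean.

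HEM25 (YDL119C) encodes a mitochondrial carrier that brings glycine into the matrix for the first step. It stood at -0.78, -0.78 and -0.38 on arrays 1 to 3, in high-power scans alone. The mean of -0.65 ± 0.23 (SD, n = 3; limma adjusted p = 0.035) was called, and the call ended without array 1 or without array 2 (limma adjusted p = 0.19 and 0.16). The gene belongs to a family of carriers of related sequence, and its spot may bind transcripts of its relatives as well.

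HMX1 (YLR205C), the heme oxygenase gene of the endoplasmic reticulum, stood at 3.86, 3.19 and 4.51 on arrays 1 to 3, in high-power scans alone. Every array was high: 99.9%, 99.8% and 99.9% of genes had lower ratios on arrays 1 to 3. The mean of 3.85 ± 0.66 (SD, n = 3; limma adjusted p = 0.00018; 95% confidence interval from 3.27 to 4.44) was number 6 from the top of the 4312 genes. Its spread between arrays was wider than that of any other member, but the lowest array still lay above the highest array value of every synthesis-side gene.

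**Figure D2:**
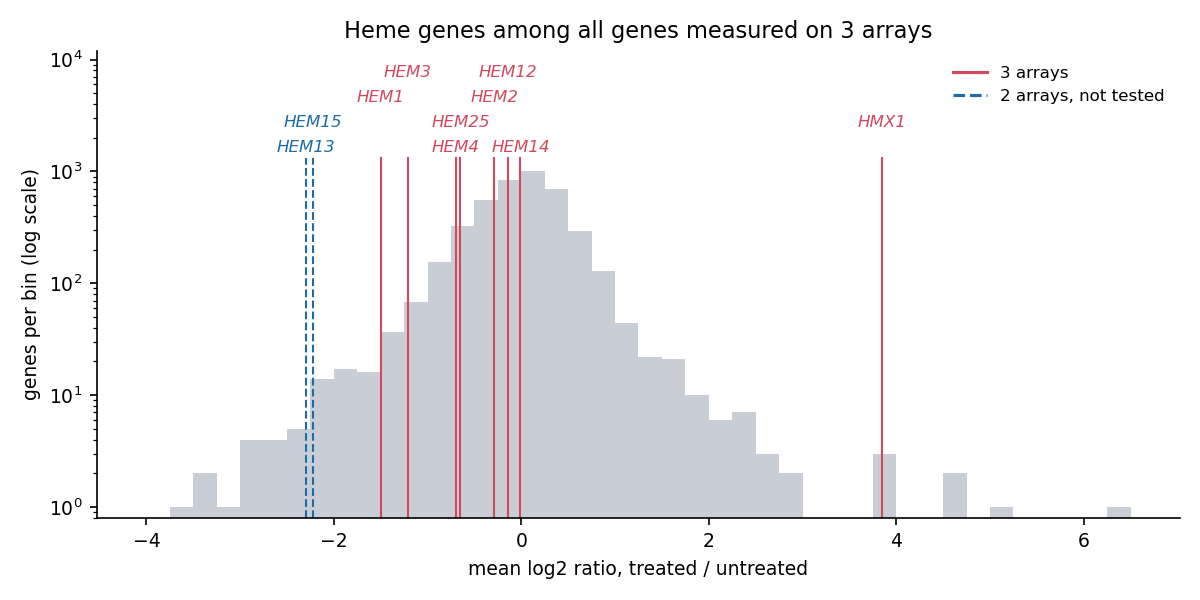
Histogram of the mean log2 ratio of the 4312 genes measured on 3 arrays (vertical axis on a log scale), with lines at the heme genes. Solid red lines mark the 8 members with 3 arrays and dashed blue lines HEM13 and HEM15 with 2. HMX1 lies in the sparse upper tail, HEM13, HEM15 and HEM1 in the lower tail, and HEM2, HEM12 and HEM14 within the main body.

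Ordered from lowest to highest mean ratio, the members ran HEM13, HEM15, HEM1, HEM3, HEM4, HEM25, HEM2, HEM12, HEM14 and HMX1, which is not the order of the pathway. The array values of most neighbours in this order overlapped when compared across arrays. Within arrays, HEM1 still lay below HEM3, and HEM25 below HEM2, on all 3. In the other overlapping pairs the arrays did not share an order. The values did not overlap between HEM15 (highest value -2.20) and HEM1 (lowest value -1.68), between HEM3 (highest -1.05) and HEM4 (lowest -1.01), or between HEM14 (highest 0.14) and HMX1 (lowest 3.19). The gap between HEM3 and HEM4 was far narrower than the spread of either gene.

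Breakdown was set against synthesis on each array by subtracting the log2 ratio of each synthesis-side gene from that of HMX1. The difference from HEM1 was 5.12, 4.87 and 6.07 on arrays 1 to 3, with a mean of 5.36 ± 0.63 (SD, n = 3), or 40.9-fold between the relative changes of these transcripts. The smallest mean difference was that from HEM14, 3.87 ± 0.57 (SD, n = 3). The largest were those from HEM13, 6.45 and 5.19 on arrays 1 and 2, and from HEM15, 6.10 and 5.39. All 7 tested differences were positive and past the threshold, and so were those of 99.9% of all other genes, so that this count says nothing particular to the pathway. With the standard errors of both genes combined, the 7 differences each had a limma-based adjusted p of 7.1e-06, again with 99.9% of genes past the threshold.

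Within the pathway, the first step was set against the other synthesis-side genes in the same way. This comparison was added after the data were seen, and HEM1 had the lowest mean of the synthesis-side genes tested. HEM1 minus HEM2 was -0.82, -1.46 and -1.35 on arrays 1 to 3, a mean difference of -1.21 ± 0.35 (SD, n = 3; limma-based adjusted p = 0.0013). Against HEM12 the mean difference was -1.36 ± 0.36, against HEM14 -1.49 ± 0.09, against HEM25 -0.85 ± 0.34 and against HEM4 -0.80 ± 0.25 (limma-based adjusted p = 0.0014, 0.00058, 0.0082 and 0.012). In the same comparison HEM1 was lower, past the threshold, than 94.4% of all other genes tested, so these calls say nothing particular to the pathway. The difference from HEM4 was no longer past the threshold without array 3 (-0.66; limma-based adjusted p = 0.065). HEM1 minus HEM3 was -0.21, -0.32 and -0.33 on arrays 1 to 3, a mean difference of -0.29 ± 0.06 (SD, n = 3). It was not past the threshold with a combined standard error of 0.23 (limma-based adjusted p = 0.25), but that error treats the genes as independent and leaves out that they share arrays, so the result does not show that they fell alike. On the 2 arrays that measured them, HEM13 lay below HEM1 by 1.33 and 0.31, and HEM15 by 0.98 and 0.52, as values with no test.

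**Figure D3:**
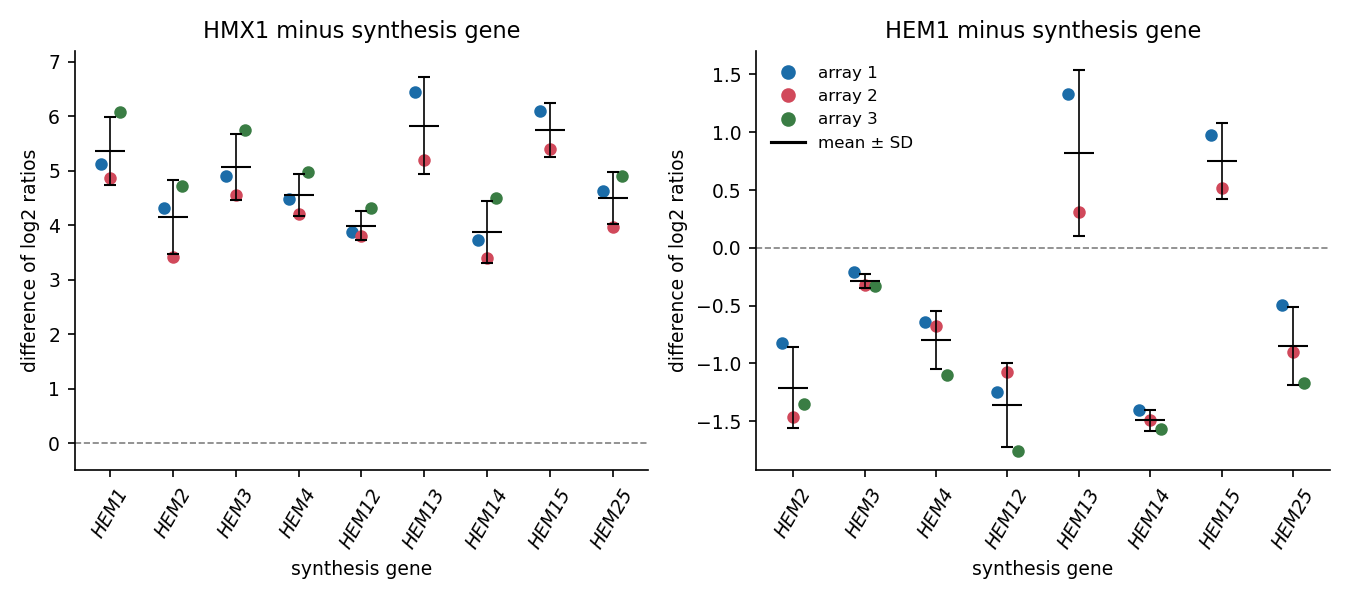
Difference of log2 ratios on each array, HMX1 minus each synthesis-side gene (left) and HEM1 minus each other synthesis-side gene (right), with points for arrays and bars for mean ± SD (n = 3, or n = 2 for HEM13 and HEM15). All differences from HMX1 lie above 3, and HEM1 lies below every other gene except HEM13 and HEM15.

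Laser power could be checked in few members. The high-power scans held values for 10, 10 and 8 members on arrays 1 to 3 and the low-power scans for 2, 2 and 6. HEM2 and HEM12 had both scans on all arrays, and their high-minus-low differences averaged -0.02 ± 0.09 and 0.06 ± 0.46 (SD, n = 3; limma adjusted p = 0.98 and 0.95). On array 3 the difference was 0.23 for HEM1, -0.27 for HEM3, -0.23 for HEM4 and 0.03 for HEM14. Of 1372 genes with both scans on all arrays, 0 (0%) differed at a limma adjusted p under 0.05, and 45 did at an unadjusted p under 0.05. HMX1, HEM13, HEM15 and HEM25 had no low-power value, so that their ratios rest on the high-power scans.

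Genes linked to the starting compounds of the pathway were called about as often as genes in general. Of 14 genes linked to glycine, succinyl-coenzyme A or the first step, all tested, 2 fell, 1 rose and the median was 0.09. Over all genes, 9.6% were lower, 8.12% were higher and the median was 0.03. The list holds genes that use these compounds as well as genes that make them. KGD1 and KGD2 encode subunits of the 2-oxoglutarate dehydrogenase complex, which yields succinyl-coenzyme A. They stood at -1.55 ± 0.53 and -1.17 ± 0.26 (SD, n = 3; limma adjusted p = 0.0041 and 0.0046). LPD1 and KGD4, of the same complex, were not past the threshold at -0.31 ± 0.07 and 0.02 ± 0.22 (limma adjusted p = 0.19 and 0.92). KGD1 was low on every array, at -1.31, -1.18 and -2.16. GCV1, which encodes a subunit of the glycine cleavage complex, rose to 0.91 ± 0.11 (limma adjusted p = 0.008). Of 5 genes linked to mitochondrial iron or cofactor import, 3 were tested and were not past the threshold. Of these MTM1 and RIM2, carrier genes, stood at 0.45 ± 0.06 and -0.34 ± 0.31 (limma adjusted p = 0.076 and 0.22). The frataxin gene YFH1, an immediate neighbour of HEM25 on the chromosome, had -1.67 and -1.80 on arrays 1 and 2 and no value on array 3. In the siroheme branch, which leaves heme synthesis at uroporphyrinogen III, MET1 was not past the threshold at 0.32 ± 0.15 (SD, n = 3; limma adjusted p = 0.18), and MET8 had 1 value, 0.63.

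Genes that modify or carry heme were mostly on the low side. Of 7 genes of heme A synthesis and cytochrome c maturation, 6 were tested, 3 fell, 3 were not past the threshold and the median was -0.93. Over all genes, 9.6% were lower and the median was 0.03. CYT2, which encodes the lyase that attaches heme to cytochrome c1, stood at -1.68, -1.84 and -2.35 on arrays 1 to 3, a mean of -1.95 ± 0.35 (SD, n = 3; limma adjusted p = 0.00065). COX10 and COX15, whose products turn heme into heme A for cytochrome oxidase, stood at -1.47 ± 0.19 and -0.97 ± 0.17 (limma adjusted p = 0.0012 and 0.0072). The lyase for cytochrome c itself, CYC3, had values of 1.41 and -0.09 on arrays 1 and 2 that did not share a sign. DAP1, which encodes a heme-binding protein that assists sterol demethylation, fell to -1.89 ± 0.29 (limma adjusted p = 0.0006), and PUG1, a porphyrin transporter gene, had values of 0.59 and 0.00 on arrays 1 and 3.

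Of 16 genes of heme proteins and their partner subunits, 11 were tested. Of these, 6 fell and 5 were not past the threshold, beside 9.6% lower over all genes. Their median was -2.35, beside 0.03 over all genes. The lowest 4 were SDH3 (-3.65 ± 0.17), CTT1 (-3.38 ± 0.66), CYT1 (-3.26 ± 0.23) and SDH4 (-2.98 ± 0.37), which encode the membrane subunits of succinate dehydrogenase, a catalase and cytochrome c1. The genes CYC1, CYC7, CCP1 and CYB5 were, like HEM13 and HEM15, without a value on array 3, and were named after their values were seen. On arrays 1 and 2, CCP1, the cytochrome c peroxidase gene, stood at -2.87 and -3.15, and CYC1, the main cytochrome c gene, at -2.51 and -2.66. CYC7 stood at -2.75 and -1.99, and CYB5 less low at -1.32 and -1.61. The 5 tested genes not past the threshold had means between -0.86 and 0.53.

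The regulators and targets of heme signalling were mixed. Of 12 heme and oxygen regulators, 8 were tested and HAP4, the activation subunit of the Hap2/3/4/5 complex, was the 1 that fell, at -1.60, -1.72 and -1.36 on arrays 1 to 3 (mean -1.56 ± 0.18, SD, n = 3; limma adjusted p = 0.00089). That count is near the 9.6% lower over all genes. HAP3, of the same complex, had -1.55 and -0.96 on arrays 1 and 2 and no value on array 3, and 2 regulators were lower when genes on 2 arrays were admitted. HAP1 was listed but was not among the genes named on the array. ROX1, the repressor of HEM13, was not past the threshold at 0.18 ± 0.30 (limma adjusted p = 0.51). ROX1 was named after its values were seen. Of 11 genes activated by heme in aerobic cells, 10 were tested and 7 fell, with a median of -2.0. Over all genes, 9.6% were lower and the median was 0.03. In the list of heme-activated genes, CTT1, CYT1, COX6 and COX4 were the lowest. This list shares CTT1, CYT1, CYC1, CYB2 and YHB1 with the heme protein list.

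Of 12 genes known from low-heme or low-oxygen growth, 8 were tested, 1 fell, 1 rose and the median was 0.37, a count near the 17.7% called over all genes. TIR1, a cell wall mannoprotein gene, stood at 0.96, 0.97 and 0.93 on arrays 1 to 3 (mean 0.95 ± 0.02, SD, n = 3; limma adjusted p = 0.0063). ANB1, a translation factor gene with a near-identical paralog that the same spot can bind, stood at -1.34 ± 0.61 (limma adjusted p = 0.01). HEM13 belongs to this class by its known control, and its mean of -2.30 (n = 2) lay below those of the 8 tested genes. CYC7, a cytochrome c gene of the list that was also measured on arrays 1 and 2 alone, stood at -2.75 and -1.99, a mean of -2.37 ± 0.54 (SD, n = 2). Among 4 tested iron regulator genes, TIS11 and YAP5 rose to 1.91 ± 0.20 and 1.18 ± 0.10, and CTH1 fell to -1.75 ± 0.26 (limma adjusted p = 0.00042, 0.0029 and 0.0007). AFT1 was also listed but was not among the genes named on the array. TIS11 and CTH1 encode related proteins that bind messenger RNA and promote its decay, and YAP5 an activator that responds to high iron. Over all 10 lists together, 79 genes were listed and 61 tested, of which 20 fell and 4 rose, beside 9.6% lower and 8.12% higher over all genes.

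**Figure D4:**
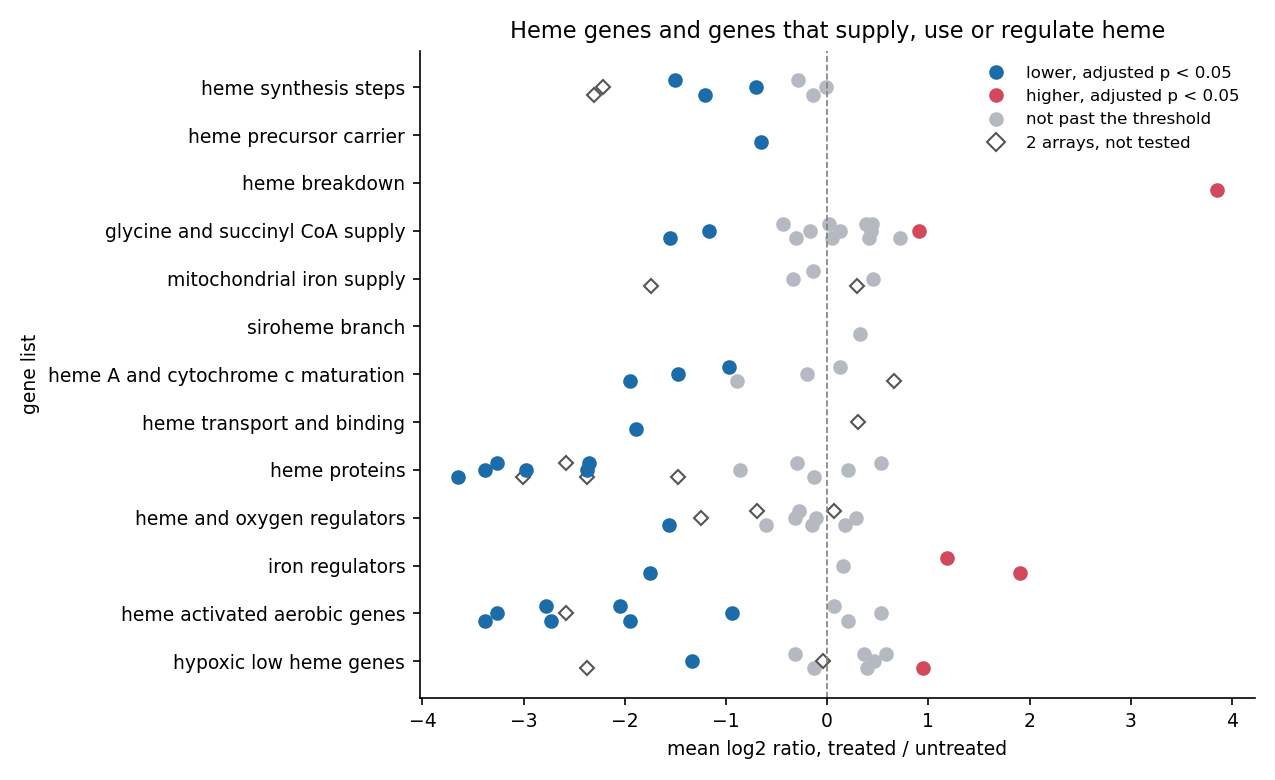
Mean log2 ratio, treated over untreated, of each gene of the heme lists and of the lists that supply, use or regulate heme, in blue for lower and red for higher genes at a limma adjusted p under 0.05, grey for genes not past it and open diamonds for genes with 2 arrays. Heme proteins and heme-activated aerobic genes reach below -3, while HMX1 at 3.85 lies above every other gene drawn. The list labelled glycine and succinyl CoA supply also holds genes that use these compounds.

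The genes whose array values were most like those of a member were found by Euclidean distance over the 3 arrays. For HMX1 they were ARN1, FRE2 and FIT3, at distances of 1.54, 1.72 and 1.81. ARN1, a siderophore transporter gene, had ratios of 3.53, 4.55 and 3.88, so that its highest array, array 2, was the lowest of HMX1. For HEM1 the nearest were COX10, TDA3 and QCR9, at distances of 0.107, 0.113 and 0.182, and COX10 had -1.26, -1.58 and -1.58. For HEM3 they were RTC5, AIM17 and ILV2, at 0.076, 0.134 and 0.174.

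Neighbouring genes on the chromosomes were examined by gene order alone, without coordinates, since no source used here names the genome build of the array. Of the 20 protein-coding genes next to the members, 10 were tested, of which 1 rose and the others were not past the threshold, beside 17.7% called over all genes. That one was YGL039W, an oxidoreductase gene beside HEM2, at 1.38 ± 0.12 (SD, n = 3; limma adjusted p = 0.0013). The others had means between -0.62 and 0.08, among them QRI5 (-0.62 ± 0.53) and ENT2 (0.08 ± 0.15) on the sides of HMX1, and COX20 (-0.05 ± 0.30) and RTN1 (-0.12 ± 0.22) on those of HEM1. A further 6 neighbours had values on 2 arrays. The lowest of these were YFH1 beside HEM25 at -1.74 ± 0.10 and RFM1 beside HEM4 at -0.93 ± 0.50 (SD, n = 2), and the others had means between -0.54 and -0.18. HEM13 and HEM12 lie on the same chromosome with 2 genes between them, RPC11 at -0.38 ± 0.11 (SD, n = 2) and BAP3 at -0.02 ± 0.29 (SD, n = 3).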

How the data were processed

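The authors deposited a log2 ratio of both dyes per spot and scan, normalized by LOWESS on spots without a quality flag per the labels; the base was read from the lowest value, -6.64, the base-2 logarithm of 0.01. LOWESS sets the average ratio near 0, so a change common to most transcripts is hidden. Scans held 1789 to 5737 values of 6912 spots, with medians from 0.02 to 0.08. Spot intensities were not used here, so signal over background is unknown; the number of arrays limits the precision. Of the spots, 5446 were named by 1 gene and 1466 by none in the platform annotation, with symbols updated through RefSeq (R64). There were 0 unused sample columns.

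Spots of a gene were averaged per scan, and scans per array. Mean ratios were tested against 0 with limma 3.58.1 (lmFit, eBayes, R 4.3.3); the median SD was 0.273, and Pearson's r across genes, which are not independent replicates, was 0.65 to 0.716 between arrays. The planned fit of HMX1 minus each gene shares the deviations of HMX1 among all genes, which makes its p-values too small; they are not printed, and combined standard errors, which leave out the pairing by array, were added after the data were seen, as was the comparison with HEM1. The members and lists were chosen with earlier results of these data known. Named genes were all members; per list, up to 4 past the threshold farthest from 0, or up to 2 otherwise; and the 3 nearest genes to HMX1, HEM1 and HEM3. List genes with values on 1 or 2 arrays were named after their values were seen. The procedure was tested on simulated data. The planned motif description of promoters was not run, and no sequences are shown. Figures were drawn with matplotlib 3.10.9.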

Additional observations from a re-analysis of the deposited data

How the results depend on the processing

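The main settings were varied one at a time: using only high-power scans, only low-power scans or only values seen in both; admitting genes on at least 2 arrays; centring scans on their medians; quantile normalization; eBayes with the robust option; testing against a 1.5-fold change (treat); an adjusted p under 0.01; the first spot of a gene; and leaving out each array. No member's call changed direction under these, and HMX1 was past the threshold wherever it was tested. No further pairing of samples was possible because the series has 1 group and each ratio already pairs a treated with an untreated culture.

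The count of genes was 74 higher and 77 lower with low-power scans alone, where 1429 genes were tested, 175 and 182 with both scans required (1372 tested), 65 and 77 with treat, 132 and 163 at an adjusted p under 0.01, and 132 to 279 higher and 179 to 318 lower with 1 array left out. Low-power scans alone and both scans required left 2 members to test, HEM2 and HEM12, with 0 lower and 0 higher. Of the members, 1 was lower with treat (HEM1; HEM3 had an adjusted p of 0.064), 2 were at an adjusted p under 0.01, and 2 to 5 were with 1 array left out, as HEM4 lost its call without any of the arrays, HEM25 without array 1 or 2, and HEM13 and HEM15 became testable without array 3. In the supporting lists, 9 of 61 tested genes were higher with high-power scans alone, beside 515 of 4252 over all genes. With low-power scans alone 1 of 26 was higher, beside 74 of 1429. With treat 1 of 61 was higher, beside 65 of 4312. For lower genes, low-power scans alone gave 5 of 26, beside 77 of 1429, and both scans required gave 5 of 26, beside 182 of 1372. Causes beyond the number of genes and arrays were not tested.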

Other observations

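HEM13 and HEM15 had no value on array 3, which had fewer values than the other arrays in its high-power scan (4693, against 5737 and 5243). Of the 736 genes with values on 2 arrays, 545 lacked array 3, 182 array 2 and 9 array 1. Genes that stood low on arrays 1 and 2 lacked array 3 more often: of 51 genes with a mean log2 ratio of -2 or less there, 17 (33.3%) had no value on array 3, against 545 of 4857 (11.2%) of all genes with values on both arrays. Of 32 genes at 2 or more, 4 (12.5%) lacked it. These shares describe the deposited values, and were computed after the data were seen, with no test.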
